A study of Mus musculus with 12 samples.

Results

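The genes described here are 36 mouse imprinted genes, chosen by name from the known imprinted clusters, and their RNA levels were read in whole mammary fat pads of female C57BL/6 mice. A gene was kept where at least 6 of the 12 libraries held 10 or more reads, which left 32 of the 36 genes, out of 55487 gene IDs counted. The other 4, Rtl1, Dio3, Phlda2 and Magel2, had 0 to 9 reads in any library and are not described further. There were 2 groups of 6 libraries: mice given 5 mg/kg folic acid, the higher dose, and mice given 1 mg/kg, the lower dose. Both groups were of the same inbred strain without an engineered allele named in the labels, were taken at postnatal day 84, 4 weeks after supplementation during juvenile and peri-pubertal life, and gave the right thoracic fat pad. The labels name no unsupplemented group, so every comparison is between the amounts of folic acid. Whether each library is another animal is not stated there, so p-values measure the spread between these samples, which may be technical. With an inbred strain and a single count per gene, the parental origin of the RNA was not measured.

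An imprinted gene is transcribed mainly from a single parental copy, because a control region near it carries DNA methylation laid down in the egg or the sperm. Imprinted genes lie in clusters, in which a non-coding RNA is often transcribed from the opposite copy to its protein-coding neighbours. Many act on fetal and postnatal growth, and many are turned down strongly after birth. Folate carries the methyl groups that DNA methylation draws on, which is why imprinted genes are of interest in a folic acid experiment.

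Libraries held between 48165752 and 75299437 reads assigned to genes. Reads outside annotated genes made up 5.58% to 26.6% of all reads tallied, with 11.8 ± 5.43% at the higher dose and 15.1 ± 6.61% at the lower dose (mean ± SD, n = 6 each). Markers of the expected tissue were present in each library: the mean of 8 adipocyte markers lay between 6.78 and 8.71 log2 CPM and that of 8 luminal epithelial markers between 3.33 and 6.29. The mean of 8 skeletal muscle markers ran from 9.62 to 12.28 log2 CPM, and the mean of 8 B cell markers ran from -1.41 to 6.36 log2 CPM. CPM is a read count scaled to library size, with factors from the trimmed mean of M-values (TMM).

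The 3 promoters below are shown because the RNAs that start there carried the main patterns: Peg3, whose level followed that of its neighbour Zim1, Meg3, the first of 3 maternal RNAs that varied together, and Kcnq1ot1, an unspliced RNA. Each is the RefSeq window of 300 bases on GRCm38.p6, from 250 before to 50 after the start. RefSeq windows were used for 27 of the 32 genes, and none was used for H19, Cdkn1c, Peg10, Sgce or Impact. The Peg3 window is chr7:6730370-6730669 on the minus strand, and 263 of its bases also belong to the window of Usp29, which starts in the opposite direction. The Meg3 window is chr12:109540746-109541045 on the plus strand, and the Kcnq1ot1 window is chr7:143296498-143296797 on the minus strand. Capitals mark 3 short motifs on either strand: TGCCGC, which the imprint-maintaining protein ZFP57 binds when methylated, TGACG, the half-site of the cyclic AMP response element, and CCAAT, the box bound by NF-Y.
Peg3: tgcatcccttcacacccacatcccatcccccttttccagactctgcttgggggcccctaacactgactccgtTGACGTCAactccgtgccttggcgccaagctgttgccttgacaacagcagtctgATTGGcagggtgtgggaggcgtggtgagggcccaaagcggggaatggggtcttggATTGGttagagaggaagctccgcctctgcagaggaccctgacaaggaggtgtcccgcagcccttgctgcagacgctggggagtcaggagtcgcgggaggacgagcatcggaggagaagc
Meg3: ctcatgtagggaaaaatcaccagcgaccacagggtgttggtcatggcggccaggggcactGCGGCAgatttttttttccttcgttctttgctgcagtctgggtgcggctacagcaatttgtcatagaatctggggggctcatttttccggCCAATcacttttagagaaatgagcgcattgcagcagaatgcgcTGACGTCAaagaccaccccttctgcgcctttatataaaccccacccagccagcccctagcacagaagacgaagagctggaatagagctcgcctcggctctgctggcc
Kcnq1ot1: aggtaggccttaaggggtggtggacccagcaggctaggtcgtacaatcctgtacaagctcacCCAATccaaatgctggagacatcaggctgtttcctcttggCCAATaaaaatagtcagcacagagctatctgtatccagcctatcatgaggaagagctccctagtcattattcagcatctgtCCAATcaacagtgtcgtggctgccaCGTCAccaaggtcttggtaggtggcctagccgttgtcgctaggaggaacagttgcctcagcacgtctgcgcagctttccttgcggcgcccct
The Peg3 and Meg3 windows each held TGACG on both strands, overlapping in a palindrome, and 5.01% of all 32851 windows held 2 or more such half-sites. The Kcnq1ot1 window held 3 CCAAT boxes, and 3.37% of all windows held 3 or more. TGCCGC occurred in the Meg3 window, in 10 of the 44 windows of the 27 genes (22.7%), and in 11.6% of all windows. The 10 belong to 9 genes, because overlapping windows of Mest were counted separately. Windows were not matched for their content of CG, which the motif holds, so the shares are not a test of enrichment. TGACG and CCAAT were searched after the sequences had been read, and a match is a description of letters, not of binding.

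No imprinted gene differed between 5 mg/kg and 1 mg/kg past the threshold. By edgeR's quasi-likelihood test 0 of the 32 genes had a Benjamini-Hochberg adjusted p under 0.05, against 0 of 18647 genes tested (0%). At an unadjusted p under 0.05 there were 0 of the 32, where the background was 1.93% of all genes. DESeq2 and limma-voom also called 0 of the 32, with 0 at an unadjusted p under 0.05 each. Of the 32 genes, 23 had a positive log2 fold change, meaning a higher fitted level at the higher dose, against 47.2% of all genes, and 9 a negative one, against 52.8%. Their median was 0.16, beside -0.018 over all genes. The 11 genes known to be expressed from the maternal copy all had positive values by edgeR, the lowest 0.0032, with a median of 0.21. Of the 18 from the paternal copy 11 did, with a median of 0.10. By DESeq2, and with the B cell level as covariate, 9 of the 11 maternal and 11 of the 18 paternal genes were positive. Meg3, Rian and Mirg, among the 11, varied together, so the 11 are not independent. With library size as the sole scaling, the median over all genes was -0.16 and that of the 32 was 0.048, and 7 of the 11 maternal and 10 of the 18 paternal genes were positive. Without replicate 6 at the higher dose the median of the 32 was 0.036, and 9 of the 11 maternal genes were positive. Leaving out any other library left 8 to 11 of them positive, with 8 without replicates 1, 4 or 6 at the lower dose. Marker lists of the tissues differed in direction between the doses. All 8 adipocyte markers had positive values (median 0.43), as did all 8 matrix markers of fibroblasts (median 0.53) and all 8 brown fat markers (median 1.16), with 0 past the threshold by edgeR and 2 of the brown fat markers at an unadjusted p under 0.05. In the other direction, 8 of 8 B cell markers (median -0.58), 7 of 7 T cell markers (median -0.61), 7 of 8 luminal epithelial markers (median -0.12) and 6 of 8 skeletal muscle markers (median -0.17) had negative values, with 0 past the threshold. By edgeR 5 of 6 endothelial markers were positive (median 0.16, 1 at an unadjusted p under 0.05). So were 5 of 6 Schwann cell (median 0.22) and 3 of 5 basal epithelial markers (median 0.043). The B and T cell levels were high in replicates 1, 2 and 3 at the higher dose. At the lower dose they were high in replicates 1, 3, 5 and 6. The B and T cell markers share this split and are not independent. Median half-widths of their intervals were 3.06 and 2.60 on the log2 scale. The adipocyte level ran from 7.80 to 8.51 log2 CPM at the higher dose and from 6.78 to 8.71 at the lower dose. The part of tissue make-up in the direction of the imprinted genes was not tested. In 0 of the 32 did the groups not overlap in CPM, against 0.0429% of all genes.

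**Figure D1:**
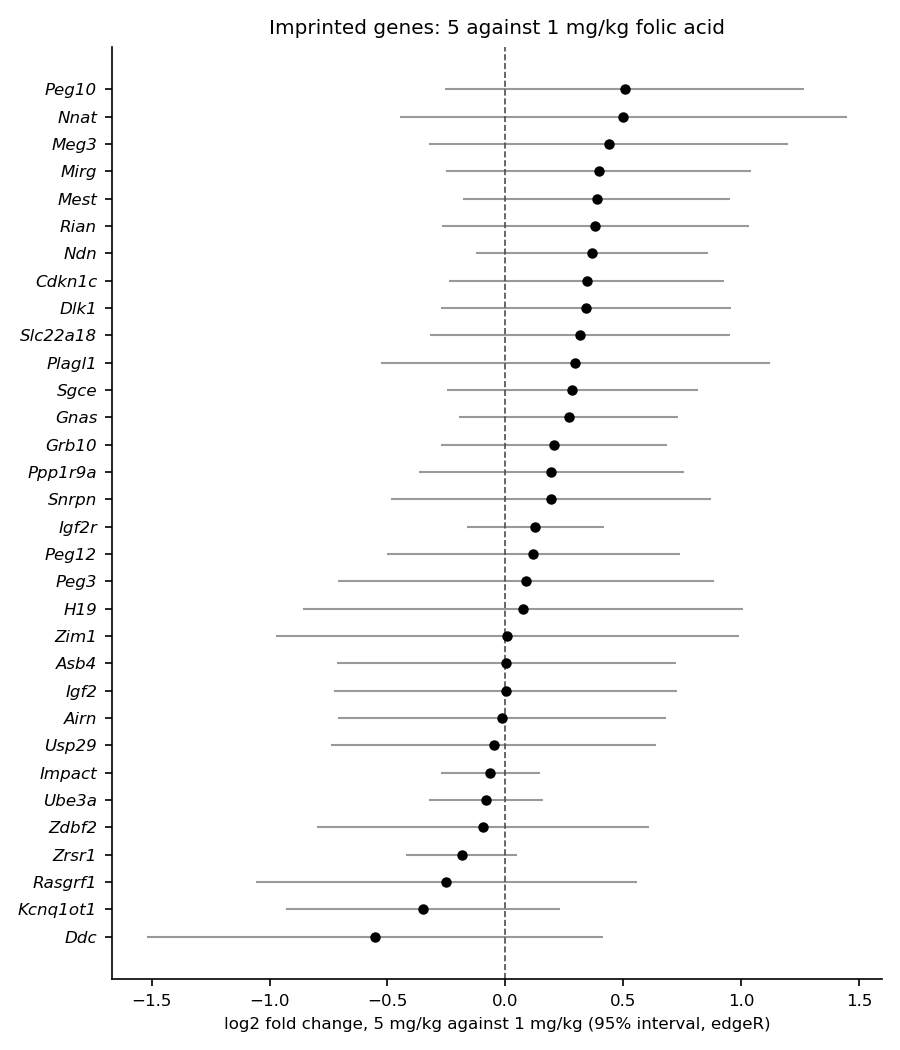
Log2 fold change of the 32 imprinted genes at 5 against 1 mg/kg folic acid by edgeR (points, n = 6 libraries each), with 95% intervals (bars). Values run from -0.55 for Ddc to 0.51 for Peg10, and each interval spans 0.

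The precision differed between genes. For 23 of the 32 the 95% interval excluded a change of 2-fold or more in either direction, as it did for 12969 of all 18647 genes. The median half-width of the interval was 0.65 on the log2 scale, beside 0.53 over all genes. For Ube3a it ran from -0.32 to 0.16. Zrsr1, a splicing factor relative that sits within an intron of Commd1, had the smallest p of the 32. It was at 13.2 ± 1.24 CPM at the higher dose and 15.02 ± 1.99 CPM at the lower dose (mean ± SD, n = 6 each). The log2 fold change by edgeR was -0.19 ± 0.11 (SE, edgeR unadjusted p = 0.114, adjusted p = 0.943). Its libraries ran from 11.9 through a median of 13.1 to 15.3 CPM at the higher dose and from 12.05 through 15.4 to 17.1 CPM at the lower dose, so the groups overlapped over most of their range. Ndn, necdin, a growth-restraining protein of the MAGE family, came next, at 0.37 ± 0.23, followed by Mest, a hydrolase-like protein linked to fat expansion, at 0.39 ± 0.26 (SE). Peg10, derived from a retrotransposon, had the highest value, 0.51 ± 0.35. Adjusted p was 0.943 for all of these by edgeR. Without replicate 6 at the higher dose Mest was at 0.12 and Peg10 at 0.21.

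**Figure D2:**
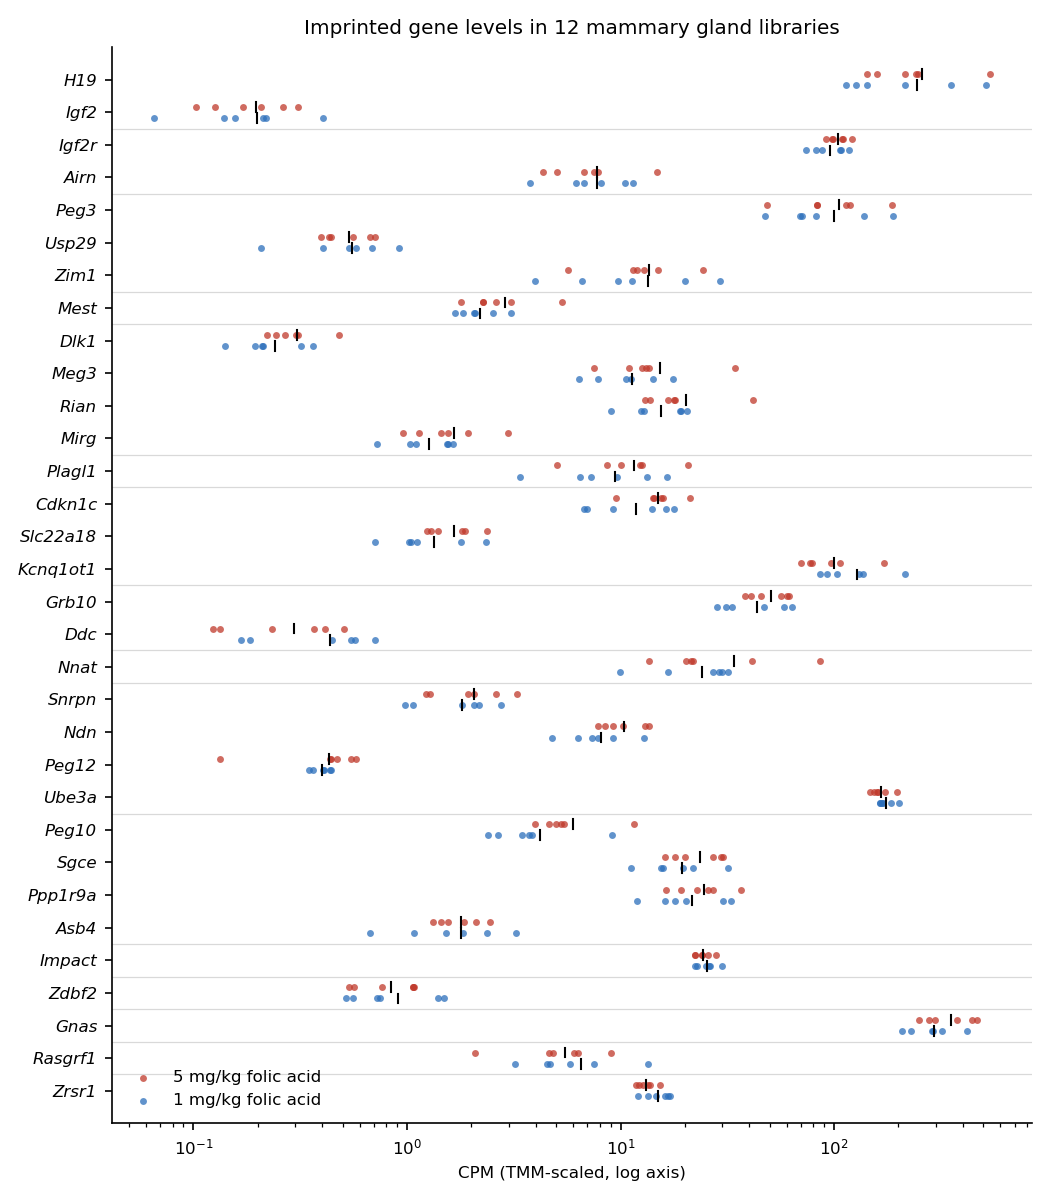
CPM on a log axis of the 32 imprinted genes in each library (points) with the group mean (black ticks), 5 mg/kg in red and 1 mg/kg in blue. Grey lines separate imprinted clusters. Levels span from H19 and Gnas, above 100 CPM in all libraries, to Igf2, below 0.5 CPM, and the groups overlap for each gene.

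In the Igf2-H19 cluster, the non-coding RNA was abundant and the growth factor nearly absent. H19 (GRCm38 chromosome 7, 142575529 to 142578143, minus strand), a maternal long non-coding RNA that restrains growth, was at 257 ± 144 CPM at the higher dose and 244 ± 159 CPM at the lower dose (SD, n = 6 each). At the higher dose it ran from 143 through a median of 228 to 537 CPM, and at the lower dose from 114 through 178 to 513 CPM. A single library in each group, replicate 5 at the higher dose and replicate 3 at the lower dose, held these maxima, and the ranges of the groups coincided. The log2 fold change was 0.075 ± 0.43 (SE, edgeR adjusted p = 0.981). Igf2 (chromosome 7, 142650766 to 142666816, minus strand), the paternal growth factor gene 72622 bases away, had 5 to 19 reads per library, or 0.197 ± 0.0797 and 0.199 ± 0.115 CPM. Per kilobase of exon, H19 was at 102 CPM and Igf2 at 0.0346 CPM, a 2938-fold difference of levels. Other genes share 64.5% of the exon bases of Igf2, among them Gm49394 and Igf2os, which had 0 to 1 and 0 to 8 reads. With the whole counts divided by unshared exon bases alone, the difference was 1146-fold. In 12 libraries the log2 levels of H19 and Igf2 had a Pearson r of 0.74 and a Spearman rho of 0.64 (permutation tests, adjusted p = 0.0151 and 0.0529 over 27 pairs of neighbours). It was 0.64 within the higher-dose and 0.80 within the lower-dose libraries, and 0.54 without replicates 1 and 3 at the lower dose, so it leaned on those libraries. With scaling by library size alone r was 0.51.

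Igf2r, the maternal receptor that takes IGF2 to the lysosome, was among the steadiest. It lay at 105 ± 10.9 CPM at the higher dose and 95.8 ± 17.3 CPM at the lower dose, a log2 fold change of 0.13 ± 0.13 (SE). It ran from 91.3 through 103 to 121 CPM at the higher dose and from 73.4 through 96.9 to 118 CPM at the lower dose. Airn, the paternal antisense RNA that silences the cluster elsewhere, was at 7.72 ± 3.77 and 7.79 ± 2.83 CPM. Without strand, Airn reads cannot be told apart from reads of unspliced Igf2r RNA across the region where they overlap. Their levels had an r of 0.51 (rho 0.50, permutation adjusted p = 0.125 and 0.164), and 0.78 with scaling by library size alone. Grb10, the maternal adaptor that dampens insulin and IGF1 signalling, was at 50.4 ± 10.1 and 43.7 ± 15.01 CPM, a log2 fold change of 0.21 ± 0.22 (SE). Ddc, its neighbour, which makes dopamine and serotonin, was scarcely present, with 6 to 51 reads, or 0.297 ± 0.157 and 0.438 ± 0.220 CPM. Ddc ran against Grb10 over the libraries (r = -0.74, rho = -0.67, permutation adjusted p = 0.0158 and 0.0454). With scaling by library size alone this r was -0.14.

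In the Peg3 cluster, Peg3 and Zim1 varied closely together although they are known to be expressed from opposite parental copies. Peg3 (GRCm38 chromosome 7, 6703892 to 6730431, minus strand), a paternal zinc finger protein, was at 106 ± 47.2 CPM at the higher dose and 99.5 ± 53.2 CPM at the lower dose (SD, n = 6 each). The log2 fold change by edgeR was 0.087 ± 0.37 (SE). It ran from 48.3 through 98.3 to 187 CPM and from 47.5 through 76.6 to 189 CPM. Zim1 (chromosome 7, 6671269 to 6696450, minus strand), a maternal zinc finger gene that lies 7441 bases downstream of Peg3, was at 13.5 ± 6.18 and 13.5 ± 9.44 CPM. Zim1 ran from 5.67 through 12.4 to 24.5 CPM at the higher dose and from 3.96 through 10.5 to 29.1 CPM at the lower dose. Replicate 2 at the lower dose held the most of both and replicate 5 at the lower dose the least of both, and in both groups the libraries spread over most of the range of either gene. Over 12 libraries r was 0.96 and rho 0.99 (permutation p = 1e-05 each, the smallest 100000 resamples can give, adjusted p = 0.00027). It stayed at 0.95 without the 2 libraries farthest from the median of Zim1, and was 0.98 and 0.97 within the groups. Among 14059 genes with a mean of at least 1 CPM, Zim1 had the highest r with Peg3, followed by Atoh8 (0.94), Gcnt2 (0.94), Fgg (0.92) and Tsc22d1 (0.91), with 2 predicted gene models or immunoglobulin segments before Tsc22d1 left unnamed.

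Usp29, a paternal gene of the ubiquitin protease family, starts 146 bases from Peg3 in the other direction and shares the promoter window shown above. Its level was far lower, at 0.534 ± 0.132 CPM at the higher dose and 0.555 ± 0.240 CPM at the lower dose, with 16 to 49 reads per library. Per kilobase of exon Peg3 was at 7.69 and Usp29 at 0.0301 CPM, a 255-fold difference of levels. Across the libraries Usp29 had an r of 0.36 with Peg3 and 0.24 with Zim1, which did not pass (permutation adjusted p = 0.320 and 0.498). Its counting error at these depths limits what such an r can show. Usp29 passed with the skeletal muscle level instead (r = 0.78, rho = 0.83, permutation adjusted p = 0.0216 and 0.0192 over 320 relations).

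In the Dlk1-Dio3 cluster the 3 maternal non-coding RNAs varied together, and the paternal protein gene Dlk1 was nearly silent. Meg3 (GRCm38 chromosome 12, 109541001 to 109571726, plus strand) was at 15.3 ± 9.52 CPM at the higher dose and 11.3 ± 4.13 CPM at the lower dose (SD, n = 6 each). The log2 fold change by edgeR was 0.44 ± 0.35 (SE). It ran from 7.50 through 12.9 to 34.2 CPM and from 6.39 through 10.9 to 17.6 CPM. Rian, which hosts small nucleolar RNAs, was at 20.2 ± 10.8 and 15.5 ± 4.67 CPM (log2 fold change 0.38 ± 0.30). Its values ran from 13.04 through 17.3 to 41.8 CPM and from 8.98 through 16.0 to 20.4 CPM. Mirg, a host of microRNAs, was at 1.67 ± 0.727 and 1.27 ± 0.368 CPM (log2 fold change 0.40 ± 0.30). All 3 were highest in replicate 6 at the higher dose and lowest in replicate 5 at the lower dose, and without replicate 6 the higher-dose values of Meg3 reached 13.5 CPM at most. Without that library the log2 fold changes were 0.029 for Meg3, 0.034 for Rian and 0.15 for Mirg. Adjusted p was 0.943 for each by edgeR.

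The r between Meg3 and Rian was 0.94 (rho 0.78), that between Meg3 and Mirg 0.91 (rho 0.78) and that between Rian and Mirg 0.96 (rho 0.91), over 12 libraries. Permutation adjusted p of r was 0.000338, 0.000338 and 0.00027. Leaving out replicate 6 at the higher dose and replicate 5 at the lower dose, the 2 farthest libraries, gave 0.77, 0.75 and 0.91. Within the higher-dose group the values were 0.98, 0.94 and 0.94, and within the lower-dose group 0.85, 0.85 and 0.998. Dlk1, a membrane protein that holds back fat cell formation, had 9 to 31 reads per library, and lay at 0.305 ± 0.0932 and 0.240 ± 0.0839 CPM. Per kilobase of exon Meg3 exceeded it 15.3-fold (0.736 against 0.0482 CPM). Even so Dlk1 had an r of 0.74 with Meg3, 0.79 with Rian and 0.75 with Mirg (permutation adjusted p = 0.0158, 0.0120 and 0.0158). Its rho was 0.80, 0.79 and 0.65 (permutation adjusted p = 0.0125, 0.0125 and 0.0529). The r was 0.52, 0.70 and 0.60 without the 2 farthest libraries. Without replicate 6 at the higher dose alone it was 0.53, 0.63 and 0.58 and no longer passed. The genes most like Meg3 over the libraries were Tmem88b (r = 0.97), Rasgrf2, Odf2l, Ctif (0.95 each) and Sox17 (0.94), the last a transcription factor of endothelium. Rian ranked at 10 and Mirg at 32 among 14059 genes in that order.

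In the Kcnq1 cluster, Cdkn1c, the maternal inhibitor of cyclin-dependent kinases, was at 15.05 ± 3.71 CPM at the higher dose and 11.8 ± 4.84 CPM at the lower dose (SD, n = 6 each). With a log2 fold change of 0.35 ± 0.27 (SE), it ran from 9.50 through 14.9 to 21.0 CPM and from 6.74 through 11.6 to 17.8 CPM. Slc22a18, a maternal transporter gene, was at 1.67 ± 0.436 and 1.34 ± 0.607 CPM. Kcnq1ot1 (GRCm38 chromosome 7, 143203458 to 143296549, minus strand), the paternal antisense RNA that silences this cluster, was at 99.9 ± 37.3 and 127 ± 47.0 CPM (log2 fold change -0.35 ± 0.27). It ran from 69.9 through 87.7 to 171 CPM at the higher dose and from 85.9 through 117 to 214 CPM at the lower dose. The annotation gives it a single exon of 93092 bases within Kcnq1, and without strand its reads cannot be told apart from those of unspliced Kcnq1 RNA. The log2 ratio of Cdkn1c to Kcnq1ot1 was -2.66 ± 0.624 at the higher dose and -3.40 ± 0.969 at the lower dose, a difference of 0.74 that did not pass (exact two-sided permutation p = 0.147, adjusted p = 0.662 over 9 ratios).

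Kcnq1ot1 was highest where the share of reads outside genes was highest. Replicate 6 at the lower dose had 214 CPM and 26.6% of reads outside genes, replicate 6 at the higher dose 171 CPM and 20.8%, and replicate 5 at the higher dose, the lowest, 69.9 CPM and 5.58%. Over 12 libraries r was 0.91 and rho 0.82 (permutation tests, adjusted p = 0.00144 and 0.0304 over 32 genes). It was 0.91 and 0.90 within the groups and 0.75 without the 2 libraries farthest from the median share. Gnas, which encodes the stimulatory G protein alpha subunit, ran the other way (r = -0.91, rho = -0.92, adjusted p = 0.00064 and 0.00224), as did Ndn (r = -0.77, rho = -0.76, adjusted p = 0.0343 and 0.0487). For the 29 other genes the relation did not pass by r, though Snrpn and Cdkn1c passed by rho (-0.74 and -0.76, adjusted p = 0.0487 each). These relations were added after the data were seen, and the share of all tested genes that would pass was not computed. With the share as a covariate, also added then, the log2 fold change of Kcnq1ot1 was -0.11 in place of -0.35 and that of Gnas 0.086 in place of 0.27. Scaling by library size alone put Gnas at 0.11, and without replicate 6 at the higher dose that of Kcnq1ot1 was -0.57. The part of unspliced RNA in these levels was not tested.

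**Figure D3:**
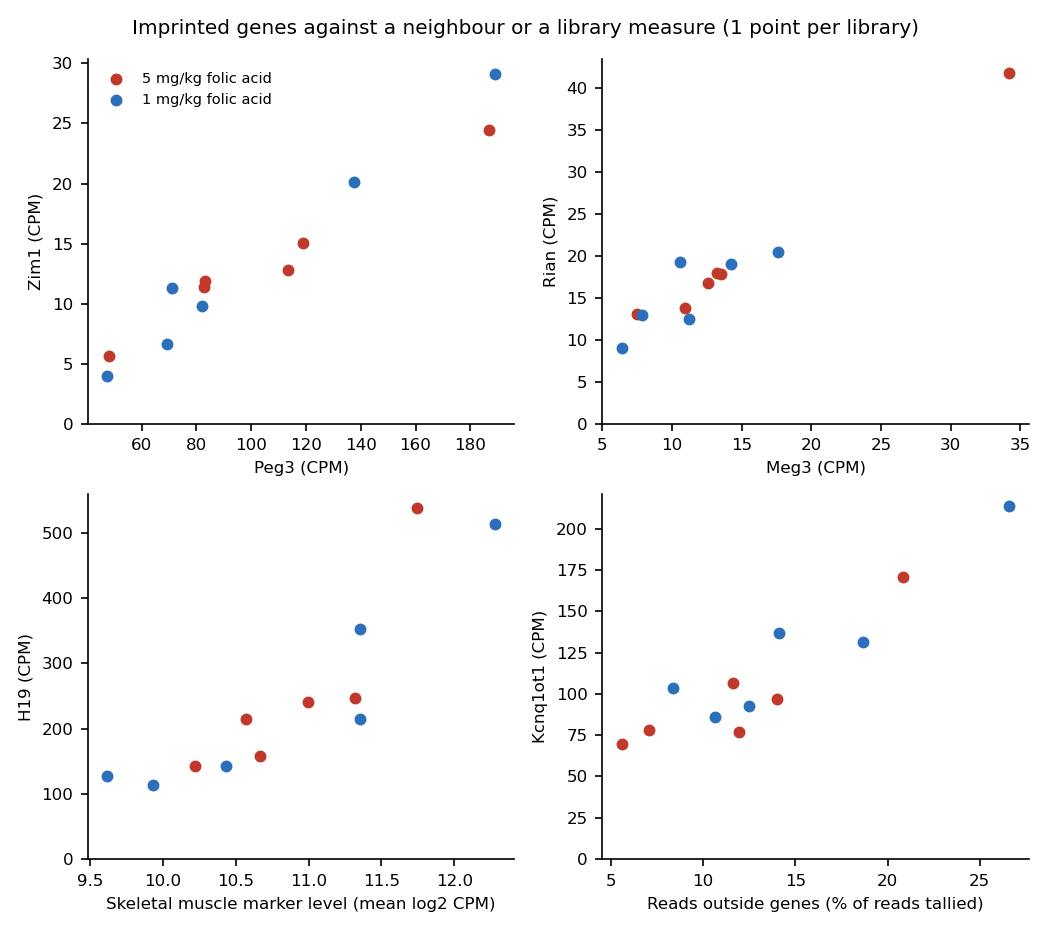
Each point is a library (red 5 mg/kg, blue 1 mg/kg). Zim1 against Peg3 (r = 0.96) and Rian against Meg3 (r = 0.94) are in CPM, H19 in CPM is set against the mean log2 CPM of 8 skeletal muscle markers (r = 0.92), and Kcnq1ot1 in CPM against the percentage of reads outside genes (r = 0.91). Values of r are on log2 CPM, and points of both groups interleave in each panel.

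In the Prader-Willi and Angelman region, which is paternal but for Ube3a, Ndn was at 10.4 ± 2.42 CPM at the higher dose and 8.06 ± 2.78 CPM at the lower dose (SD, n = 6 each). It ran from 7.83 through 9.75 to 13.6 CPM and from 4.76 through 7.61 to 12.8 CPM. Snrpn, a spliceosome protein gene, was at 2.06 ± 0.786 and 1.81 ± 0.681 CPM. It shares exons with Snurf, which had 0 reads in each library, and with Gm38393, which had 51 to 128, so part of its count is uncertain. Peg12 had 6 to 37 reads, or 0.434 ± 0.158 and 0.401 ± 0.0388 CPM. Ube3a, a ubiquitin ligase that is imprinted in neurons, was at 165 ± 17.9 and 175 ± 14.9 CPM (log2 fold change -0.081 ± 0.11). Other genes, Snhg14 on the opposite strand among them, share 27.3% of the exon bases of Ube3a. Snrpn and Ndn went together (r = 0.82, rho = 0.89, permutation adjusted p = 0.00616 and 0.00144), with 0.95 and 0.78 within the groups 0.70 without the 2 farthest libraries, and 0.38 with scaling by library size alone. The r of Ube3a with Snrpn was 0.64 and with Peg12 -0.68 (permutation adjusted p = 0.0440 and 0.0158), but with scaling by library size alone these became -0.42 and 0.77. No direction is therefore given for Ube3a against its neighbours.

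In the Peg10 cluster, Peg10 and Sgce start 98 bases apart in opposite directions, both from the paternal copy. Peg10 was at 5.97 ± 2.76 CPM at the higher dose and 4.20 ± 2.47 CPM at the lower dose (SD, n = 6 each). It ran from 3.99 through 5.12 to 11.5 CPM and from 2.38 through 3.60 to 9.10 CPM, and in both groups a single library stood above the rest. Sgce, which encodes epsilon-sarcoglycan of the dystrophin complex, was at 23.5 ± 6.203 and 19.3 ± 7.20 CPM. Per kilobase of exon Sgce was at 2.02 CPM and Peg10 at 0.763 CPM, a 2.65-fold difference of levels, against 255-fold for the divergent pair of Peg3 and Usp29. The r of Peg10 and Sgce was 0.77 (rho 0.84, permutation adjusted p = 0.0115 and 0.00616), and 0.78 without the 2 farthest libraries. Ppp1r9a, neurabin, a maternal actin-binding protein, was at 24.7 ± 7.11 and 21.5 ± 8.21 CPM (log2 fold change 0.19 ± 0.26, SE), with an r of 0.75 with either (permutation adjusted p = 0.0151 each). Without the 2 farthest libraries the r of Ppp1r9a was 0.73 with Sgce and 0.51 with Peg10. Without replicate 6 at the higher dose alone, that with Peg10 was 0.66 and no longer passed. Asb4, a maternal ubiquitin ligase adaptor, was at 1.79 ± 0.431 and 1.79 ± 0.921 CPM and passed with no neighbour.

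Among genes that stand alone, Gnas had the highest level, 352 ± 90.9 CPM at the higher dose and 292 ± 74.5 CPM at the lower dose (log2 fold change 0.27 ± 0.21, SE). It ran from 250 through 337 to 469 CPM and from 209 through 289 to 419 CPM. Its count sums the biallelic Gs alpha transcript and the imprinted transcripts of the locus, which these files do not separate. Plagl1, a paternal zinc finger factor known to act on other imprinted genes, was at 11.6 ± 5.27 and 9.42 ± 4.78 CPM. Mest was at 2.89 ± 1.27 and 2.21 ± 0.510 CPM, and Nnat, neuronatin, a small membrane protein found in fat and nerve, at 34.0 ± 27.0 and 24.1 ± 8.73 CPM. Nnat had the widest range of the 32, 8.68-fold from 9.90 CPM in replicate 3 at the lower dose to 85.9 CPM in replicate 6 at the higher dose. Impact, a regulator of translation, was at 24.3 ± 2.21 and 25.4 ± 2.72 CPM, with the narrowest range, 1.35-fold. Rasgrf1, a Ras exchange factor, was at 5.48 ± 2.29 and 6.52 ± 3.68 CPM, and Zdbf2 at 0.847 ± 0.258 and 0.907 ± 0.425 CPM.

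The genes differed in how far they varied between libraries. Against the 1000 tested genes closest in mean CPM, the fitted dispersion of Nnat stood at percentile 94.2, Zim1 at 92.7, H19 at 90.4, Peg3 at 90.1 and Plagl1 at 89.2. Ube3a, at 8.6, Impact, at 10.7, Peg12, at 11.8, Dlk1, at 14.9, and Zrsr1, at 17.3, lay at the low end. Replicate 6 at the higher dose held the highest level of 12 of the 32 genes, and replicate 5 at the lower dose the lowest of 11. Replicates 1 and 6 at the lower dose held the lowest of 7 and 6 more. These percentiles and counts describe the libraries and were not tested.

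Of the 27 pairs of neighbours within clusters, 15 passed by r, 13 of them positive. The share of pairs from different clusters that would pass was not computed, so the count of 15 does not set neighbours apart. The r over all 27 had a median of 0.56, from -0.74 to 0.96. Pairs from different clusters, 469 of them, had a median of 0.39 and reached 0.97. That highest value joined Plagl1 on chromosome 10 with Ppp1r9a on chromosome 6. Meg3 with Ppp1r9a and Meg3 with Plagl1 both stood at 0.91, and Mest with Meg3 at 0.91. Close co-variation was thus found for neighbours and for genes on different chromosomes. No test compared pairs within and between clusters. Without replicate 6 at the higher dose the medians were 0.53 and 0.42, and 10 of the 27 pairs of neighbours passed.

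**Figure D4:**
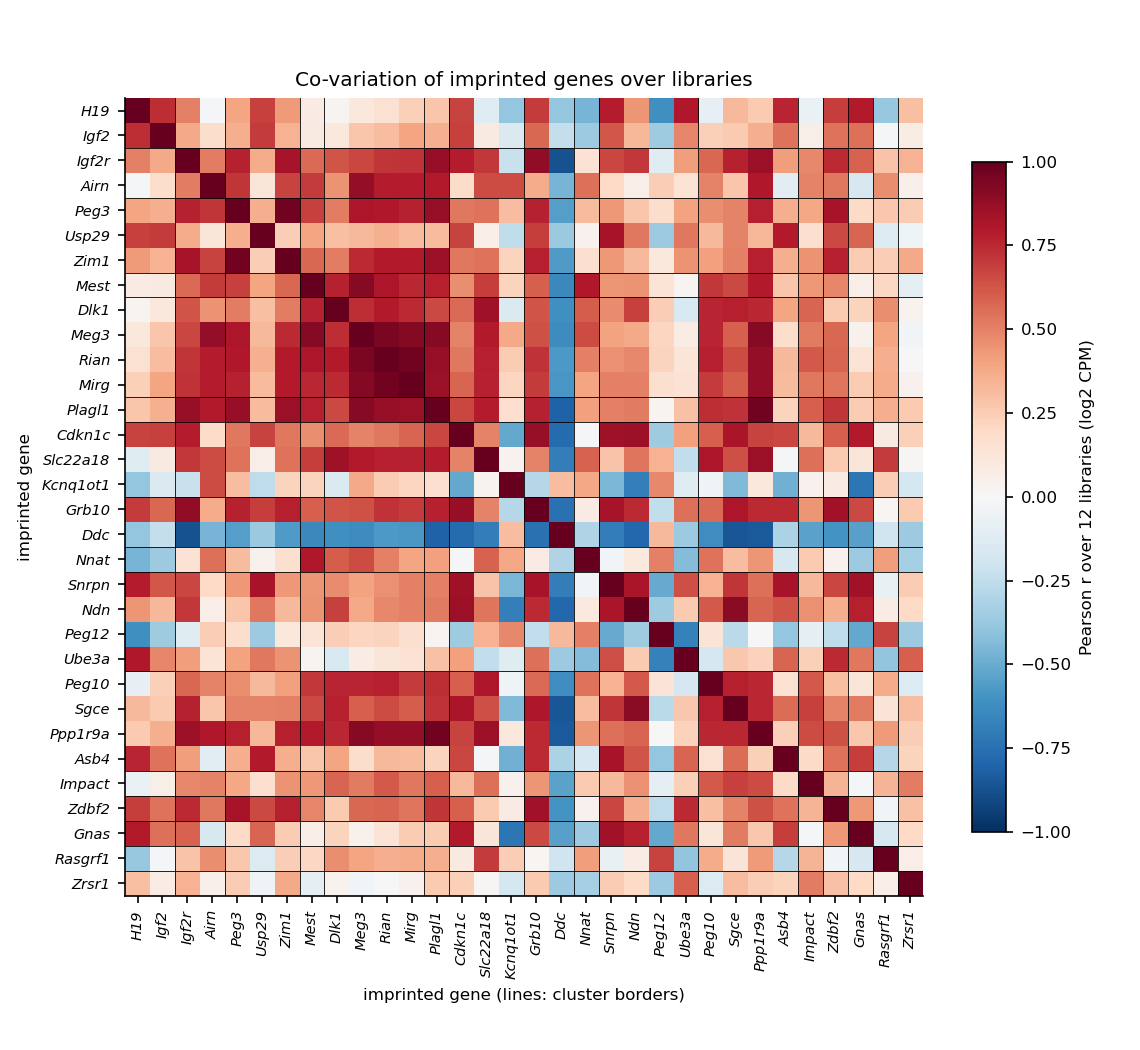
Pearson r of log2 CPM over 12 libraries for each pair of the 32 imprinted genes, ordered by cluster with black lines at cluster borders (red positive, blue negative). The Meg3, Rian and Mirg block and the Peg3 and Zim1 pair stand out within clusters, Plagl1 is red with genes of several clusters, and Ddc is blue with most genes.

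A whole fat pad holds several tissues, so the levels were set beside markers of those tissues, and in such bulk RNA fewer cells of a type cannot be told apart from less RNA per cell. Of 256 relations between the 32 genes and 8 marker lists, 54 passed by r (permutation test, adjusted over 320 relations), 49 positive and 5 negative, and 37 of them also passed by rho. They involved 22 of the 32 genes. The share of all tested genes that would pass with these lists was not computed, so the counts do not set imprinted genes apart. With the matrix genes of fibroblasts 11 genes passed in the positive direction, with endothelium 9, with adipocytes 7, with skeletal muscle 7 and with Schwann cells of nerve 7. The count of 54 fell to between 26 and 35 without any of replicates 4 and 6 at the higher dose (33 and 34) or 1, 2, 4, 5 and 6 at the lower dose (30, 35, 26, 28 and 35). The lists themselves moved together, with an r of 0.82 between adipocyte and matrix markers and 0.85 between adipocyte and endothelial markers, so a relation with any of these 3 cannot be told apart from the others.

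H19 followed skeletal muscle. Its r with the muscle marker level was 0.92 and its rho 0.93 (permutation adjusted p = 0.00356 and 0.00512). The r was 0.92 and 0.94 within the groups and 0.91 without the 2 farthest libraries. The 2 libraries with most H19, at 537 and 513 CPM, had muscle levels of 11.74 and 12.28 log2 CPM, and that with least, at 114 CPM, had 9.93. Asb4 (r = 0.92, rho = 0.94) and Snrpn (r = 0.85, rho = 0.76) also passed with this list (permutation adjusted p of r = 0.00356 and 0.00792). The genes most like H19 over the libraries were Bmpr1b (r = 0.97), a bone morphogenetic protein receptor, and Pabpc4, Efcab2, Itgb1bp2 and Tceal5 (0.95 each). Itgb1bp2 encodes melusin, a protein of striated muscle. For Igf2 they were Dctn1, Sec61a2, mt-Tp and Cnksr2 (0.81 each) and Habp4 (0.78), with 3 predicted models or immunoglobulin segments before Habp4 left unnamed. H19 stood at rank 34 of 14060.

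Sgce and Ndn had their highest r with the adipocyte level, though fat, matrix and endothelium cannot be told apart here. The r with the adipocyte level was 0.92 for Sgce (rho 0.87) and 0.90 for Ndn (rho 0.80), with a permutation adjusted p of r of 0.00356 each. Within the groups it was 0.89 and 0.94 for Sgce and 0.97 and 0.85 for Ndn, and without the 2 farthest libraries 0.84 and 0.83. Sgce also passed with matrix (r = 0.87) and endothelial markers (r = 0.84), and Dlk1, in spite of its few reads, with matrix (r = 0.81) and endothelium (r = 0.80). Peg10 was closest to endothelium (r = 0.87, rho = 0.88, permutation adjusted p = 0.00480). Plagl1 (r = 0.82), Ppp1r9a (r = 0.86) and Igf2r (r = 0.82) passed with the Schwann cell level, which was lower in the libraries with high B cell markers. Slc22a18 passed with luminal epithelium (r = 0.85, rho = 0.78). Igf2r (r = 0.83) and Grb10 (r = 0.81) passed with matrix, Cdkn1c with endothelium (r = 0.81) and Gnas with skeletal muscle (r = 0.81). Gnas was closest to brown fat (r = 0.90, rho = 0.90, permutation adjusted p = 0.00356), a level that itself ran against the share of reads outside genes (r = -0.86). Some of these relations no longer passed without a single lower-dose library. Without replicate 5 these were Slc22a18 with luminal epithelium, and Plagl1 and Igf2r with Schwann cells (r = 0.75 each). Without replicate 6 they were Dlk1 with matrix (0.69) and endothelium (0.74), and Gnas with skeletal muscle (0.75).

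Of the 5 negative relations 4 were of Ddc and 1 of Kcnq1ot1 with brown fat (r = -0.79). Ddc ran against adipocytes (r = -0.87, rho = -0.84) and Schwann cells (r = -0.90, rho = -0.87), with a permutation adjusted p of r of 0.00792 and 0.00356. With scaling by library size alone these were -0.42 and -0.56 and no longer passed. Nor did 8 others of the relations named above: endothelium with Cdkn1c (0.20), Sgce (0.56) and Peg10 (0.70), muscle with Gnas (0.24) and Snrpn (0.64), Igf2r with Schwann cells (0.37) and matrix (0.63), and Gnas with brown fat (0.47). The B and T cell levels split the libraries into 2 separate sets, so no r over all 12 is given for them. Other marker levels and several imprinted genes differed between these sets. In the 7 libraries of the higher B cell set the Schwann cell markers averaged 1.78 to 2.79 log2 CPM and those of adipocytes 6.78 to 7.81, against 2.94 to 3.70 and 7.90 to 8.71 in the 5 others. Ddc ran from 0.369 to 0.711 CPM in the 7 and from 0.124 to 0.233 CPM in the 5. Sgce lay at 11.2 to 20.1 and 21.9 to 31.9 CPM, Plagl1 at 3.40 to 10.1 and 12.3 to 20.7 CPM, and Ppp1r9a at 11.9 to 22.9 and 25.7 to 36.6 CPM. Mest lay at 1.68 to 2.27 and 2.52 to 5.33 CPM. The share of all genes whose ranges separate between the sets was not computed. A relation with fat or nerve over all 12 libraries, those of Ndn and Igf2r among them, therefore cannot be told apart from one with the lymphoid split. Within the 7 alone r was computed on log2 CPM without a prior count, as a description. For Ddc it was -0.52 with adipocytes and -0.78 with Schwann cells. With adipocytes it was 0.71 for Sgce and 0.75 for Ndn. With Schwann cells it was 0.84 for Plagl1, 0.84 for Ppp1r9a and 0.74 for Igf2r. H19 with muscle stood at 0.95 there. Within the same 7 libraries of the higher B cell set, H19 (r = -0.92), Igf2 (r = -0.85) and Gnas (r = -0.87) ran against the B cell level (exact permutation adjusted p = 0.0444, 0.0444 and 0.0317 over 32 genes), and Ddc had an r of 0.44 (adjusted p = 0.520). Replicate 3 at the lower dose had the lowest B cell level of the 7, 3.37 log2 CPM, and the next lowest was 5.08. It also held the most H19 (513 CPM), Igf2 (0.404 CPM) and Gnas (419 CPM) of the 7, and the highest muscle level (12.28 log2 CPM). The r without that library was not computed. The part of lymphoid tissue in these levels was not tested.

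Of 9 ratios between neighbours 0 passed between the doses (exact two-sided permutation test, smallest unadjusted p = 0.134, where 0.00216 is the smallest possible). Each was computed with 0.5 CPM added to both genes. Igf2, Dlk1 and Usp29 lie near or below that amount, so their 3 ratios mostly follow the abundant partner and are not described. Rian to Meg3 was the steadiest of the 9, with log2 ratios of 0.43 ± 0.170 at the higher dose and 0.46 ± 0.268 at the lower dose. Its SD over all 12 libraries, 0.215, lay below that of Rian (0.530) or Meg3 (0.612) alone.

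Proteins that maintain imprints and further imprinted genes were read from lists of their own. Of 14 maintenance genes 13 were tested, of which 2 had positive and 11 negative values (median -0.18), against 52.8% negative over all genes, with 0 past the threshold by edgeR (1 at an unadjusted p under 0.05, against 1.93%). Their mean level ran from 3.48 to 4.21 log2 CPM in the 7 libraries of the higher B cell set and from 3.28 to 3.69 in the 5 others, and the part of lymphoid cells in it was not tested. Arid4b, a chromatin protein, was at 34.8 CPM at the higher dose and 47.1 CPM at the lower dose, a log2 fold change of -0.43 ± 0.20 (SE). Zfp445, a zinc finger protein that binds imprint control regions, was at -0.17 ± 0.10 and the methyltransferase Dnmt3a at -0.16 ± 0.093. Zfp57 was scarcely present, at 0.740 and 0.742 CPM. Of 30 further imprinted genes 28 were tested, with 22 positive values, against 47.2% over all genes, 6 negative ones, a median of 0.14 and 0 past the threshold (0 at an unadjusted p under 0.05). Osbpl5, a sterol-binding protein of the Kcnq1 region, had the smallest p, with a log2 fold change of 0.19 ± 0.092, followed by Trappc9 at 0.17 ± 0.087 and Commd1 at 0.26 ± 0.14 (SE).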

How the data were processed

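RNA was measured in 12 mammary gland libraries, made with the TruSeq v2 kit per the labels' protocols, which does not mark strand. The deposited values are unnormalised counts of reads for each gene ID. The submitters' processing notes name STAR, HTSeq 0.6.1 and the build mm10. For the aligner's version, the annotation and the counting settings, the sources used here give nothing. Reads assigned to no gene (16.7% to 35.7% of those tallied) did not enter library sizes. Reads that touch more than 1 gene were 0.586% to 0.936%. Symbols were matched for 55141 of 55487 IDs, and gene models came from GENCODE vM21 on GRCm38, the same assembly as mm10.

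The test was edgeR 4.0.16 in R 4.3.3 (filterByExpr, TMM, robust quasi-likelihood F-test) over 18647 genes without covariates, with Benjamini-Hochberg adjustment and a threshold of 0.05. Alternatives were DESeq2 1.42.0, limma 3.58.1 (voom), other scalings, no filter, covariates and leaving out each library. Each standard error is the fold change divided by the root of its F value. Correlations used log2 CPM with a prior count of 2 and 100000 resamples in scipy 1.17.1. Libraries were called separate sets where the largest gap exceeded 40% of the range with 3 or more libraries on each side. Replicates were numbered by accession and are not paired. The edgeR test was checked on simulated counts, with 50 genes changed at each fold. It called 6% of those changed 1.5-fold, 42% at 2-fold, 96% at 4-fold and 98% at 8-fold, with 6 false calls.

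All kept genes are named with their levels. Fold changes are given for the 10 with the smallest p and for the most abundant of each cluster, and as a range for the rest. Of each further list the 3 with the smallest p could be named. Zfp57 was named after its value was seen. Marker relations are given as values where r was beyond 0.8 in size, with those of Usp29 with muscle and Kcnq1ot1 with brown fat added after their values were seen. The genes and lists were chosen with earlier results of these data known.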

Additional observations from a re-analysis of the deposited data

Results flagged for a closer look

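Within the groups, 10 of 64 sets of 6 libraries (32 genes in 2 groups) had a library at an end that lay far from its nearest neighbour, with a gap that exceeded Dixon's 95% critical value as a share of the group's range. Chance alone flags about 1 in 20 sets, or 3.2 of 64, and genes that vary together are not independent sets. Replicate 6 at 5 mg/kg accounted for 7 of the 10, each at the upper end: Rian at 41.8 CPM (next 18.0), Peg10 at 11.5 CPM (next 5.45), Meg3 at 34.2 CPM (next 13.5), Airn at 14.9 CPM (next 7.86), Dlk1 at 0.482 CPM (next 0.310), Kcnq1ot1 at 171 CPM (next 107) and Mest at 5.33 CPM (next 3.08). That library had 20.8% of its reads outside genes and the highest fibroblast matrix level, 7.42 log2 CPM. Replicate 5 at 5 mg/kg stood apart with 537 CPM of H19 (next 247) and, at the lower end, 0.133 CPM of Peg12 (next 0.434). Replicate 4 at 1 mg/kg held 9.10 CPM of Peg10 (next 3.85).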

How the results depend on the processing

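The count of 0 genes and of 0 imprinted genes past the threshold was found under each of the 20 alternatives run, among them DESeq2, limma-voom, other scalings and filters, 3 covariates and each library left out. The share of reads outside genes as a covariate was added after the data were seen. The 16 log2 fold changes kept their direction except as follows. With scaling by library size alone H19 was at -0.093 and Igf2r at -0.00452. With the share of reads outside genes as covariate H19 was at -0.22. Leaving out single libraries moved H19 between -0.28 and 0.41 and Peg3 between -0.15 and 0.39. The median of the 32 genes ran from 0.036 to 0.29 when a library was left out. Ratio differences, those with Igf2 and Usp29 muted by the 0.5 CPM added, turned for H19 to Igf2 (-0.040 to 0.34), Rian to Meg3 (-0.092 to 0.049), Mirg to Meg3 (-0.15 to 0.038) and Usp29 to Peg3 (-0.34 to 0.092). Scaling by library size alone turned the r of Snrpn and Ube3a to -0.42 and that of Peg12 and Ube3a to 0.77. Relations with marker levels numbered 26 to 45 when a library was left out. The causes were not tested. No paired analysis was possible because the labels give no replicate numbers that link libraries of the groups. Counts of 5 to 51 reads limit Igf2, Dlk1, Usp29, Ddc and Peg12.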
